A study of Mus musculus with 10 samples.

Results

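The genes of the constitutive proteasome were followed in the ovaries of 10 C57BL/6J mice. They are the 36 genes, of 55487 in the deposited table, whose symbol is Psma, Psmb, Psmc or Psmd followed by a number, leaving out the interferon-inducible subunits Psmb8, Psmb9 and Psmb10. Of these, 16 (Psma and Psmb) belong to the core particle and 20 (Psmc and Psmd) to the regulatory particle or its assembly. The Control group was 4 female mice aged 8 weeks, the Aged group 3 females labelled as 11 months old, and the Aged+CF group 3 females of that age given CEFFE. CEFFE is a cell-free liquid prepared from adipose tissue, of which 200 μL at 3 μg of protein per μL was injected into the tail vein on alternate days over 2 weeks. By the study's methods Control and Aged mice received saline, and by the labels every mouse had been given 10 IU of PMSG, a gonadotropin that makes follicles grow, 48 h before the ovary was taken. The methods give a slightly lower age for the older mice than the labels do. Aging here was natural, with no transgene, and the comparison of Aged with Control sets reproductively old against young adult animals. Each library is 1 whole ovary, so a lower value can mean fewer cells of a type or less RNA per cell, and these cannot be told apart.

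The proteasome is the large protease that degrades proteins tagged with ubiquitin. Its core particle is a barrel of stacked α and β rings, in which the outer α rings gate the entrance and 3 of the β subunits, encoded by Psmb5, Psmb6 and Psmb7, carry the proteolytic sites. The regulatory particle caps the barrel. Its base holds the ring of ATPases (Psmc1 to Psmc6) that unfolds substrates and the scaffold and ubiquitin receptor subunits Psmd1, Psmd2 and Psmd4, and its lid holds Psmd3, Psmd6, Psmd7, Psmd8, Psmd11, Psmd12, Psmd13 and Psmd14, the last of which is the enzyme that removes ubiquitin from substrates. Psmd5, Psmd9 and Psmd10 are chaperones that help assemble the base and are not part of the finished particle. Psma8 is an α subunit known from male germ cells and Psmb11 a β subunit known from the thymic cortex. In inflamed tissue and in leukocytes the products of Psmb8, Psmb9 and Psmb10 take the place of those of Psmb5, Psmb6 and Psmb7, which gives the immunoproteasome. In oocytes and early embryos the ubiquitin-proteasome system is known for the timed removal of maternal and cell cycle proteins.

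The authors counted between 15761789 and 21318254 reads on genes per ovary. Values are given as CPM, counts scaled to a common library size after edgeR's TMM scaling, or as the deposited FPKM, which also divides by gene length. Of the 36 genes, 35 had enough reads to be tested, among 18956 genes kept by edgeR's low-count filter. Psmb11 did not, with 0 to 6 counts per ovary, and Psma8 passed with 15 to 62 counts. The groups also differed in cell-type markers. Of 20 oocyte markers 14 fell in Aged at adjusted p in edgeR's quasi-likelihood test, with summed levels of 594 to 813 CPM in Control, 40.1 to 208 CPM in Aged and 240 to 367 CPM in Aged+CF. Figla was at 0 in Aged replicate 33 and Mos in Aged replicate 34. All 6 luteal markers rose in Aged at adjusted p (3610 to 8940 CPM in Control, 13500 to 32200 CPM in Aged, 10700 to 16600 CPM in Aged+CF), as did 11 of 17 tested leukocyte markers (359 to 415 CPM, 654 to 1450 CPM and 568 to 617 CPM). None of 9 granulosa cell markers passed the adjusted p, but all 9 were lower in Aged than in Control, 4 of them at unadjusted p. All 9 were also lower in Aged+CF than in Control, 3 of them at unadjusted p. Their sums were 4990 to 7900 CPM in Control, 3340 to 4420 CPM in Aged and 2900 to 4970 CPM in Aged+CF. Oviduct markers, summed over 4 genes, reached 337 CPM in Control 33 and 282 CPM in Aged 34 and were at most 32.4 CPM elsewhere. The part of these shifts in the values below was not tested.

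Apart from Psma8 and Psmb11, all 34 genes were read in every ovary at levels that differed more between genes than between groups. In Control ovaries the mean FPKM ran from 4.07 ± 0.377 (SD, n = 4) for Psmd9 to 64.5 ± 6.36 for Psmb4, a 15.8-fold range. The β ring had the highest class median in Control (35.8 FPKM), ahead of the α ring (25.0 FPKM) and the base ATPases (23.0 FPKM). The medians of the lid (16.9 FPKM) and of the other base subunits (15.8 FPKM) were lower, and the assembly chaperones, which act on the complex and then leave it, were lowest (5.87 FPKM). After Psmb4 came the ATPase Psmc5 (63.6 ± 5.03 FPKM), Psmb5 (57.1 ± 3.93 FPKM), the α subunit Psma6 (52.1 ± 3.42 FPKM), the ATPase Psmc1 (48.1 ± 3.36 FPKM) and the lid subunit Psmd7 (45.4 ± 3.91 FPKM). Each of these neighbours in the order differed by less than the sum of their SDs. Below 10 FPKM were Psmd13, Psmd11, Psma3, Psmd5 and Psmd9, while Psmd10 stood at 11.3 ± 0.344 FPKM.

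The order depends on the gene lengths behind the FPKM, such as 3107 bases for Psmb6. With the length of the APPRIS principal transcript instead, a setting chosen after the data were seen, Psmb6 came first (154 CPM per kb, against rank 7 by FPKM), followed by Psmb4 (140), the α subunit Psma7 (116) and Psmb3 (113 CPM per kb). Psmc5 moved from rank 2 to rank 9. The β ring still had the highest class median and the assembly chaperones the lowest (12.1 CPM per kb). The order between them changed: the other base subunits (67.7 CPM per kb) were above the base ATPases (64.6 CPM per kb) and the lid (45.7 CPM per kb), where by FPKM they were below both. Psma5 may be uncertain in both orders, because the pseudogene Psma5-ps held 264 to 423 counts per ovary. Reads may have been split between Psma5 and Psma5-ps, whose sequences were not compared.

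**Figure D1:**
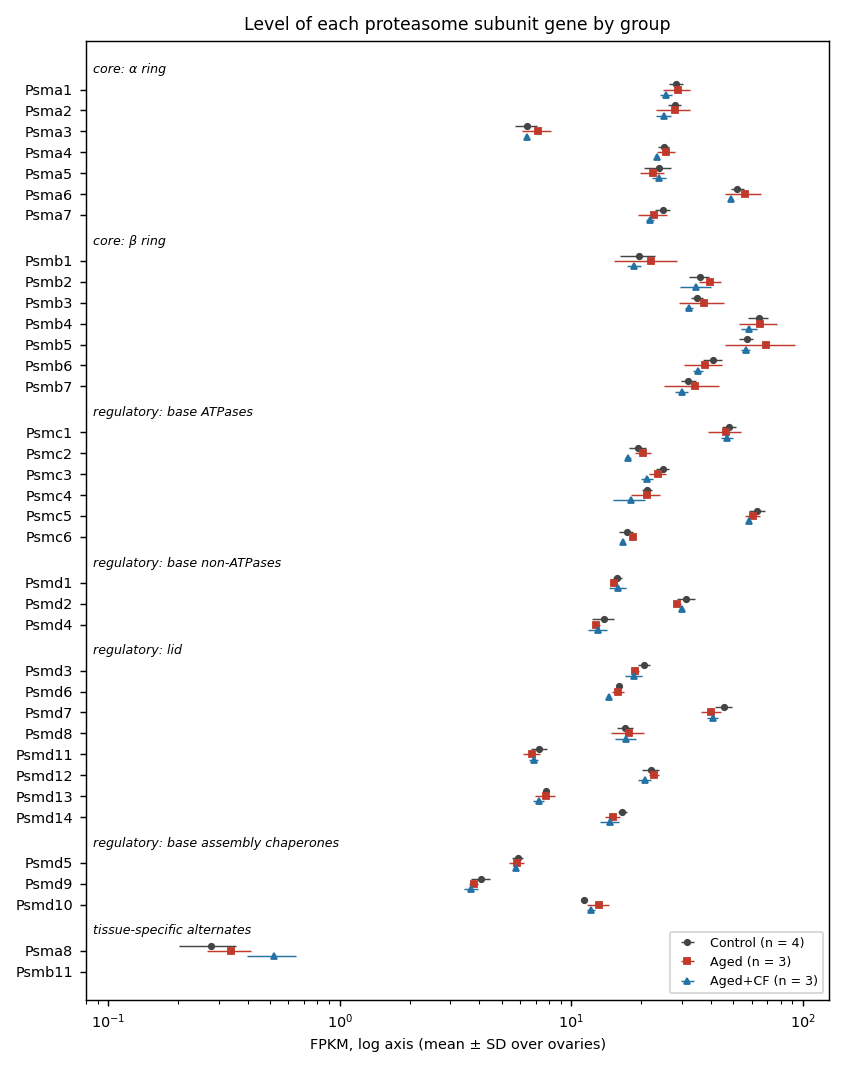
FPKM of each gene (log axis), as the mean and SD over the ovaries of Control, Aged and Aged+CF, grouped by place in the complex; Psmb11, near 0, has no point. The groups lie on top of each other for most genes, over a range from 4.07 FPKM for Psmd9 to 64.5 FPKM for Psmb4 in Control, with Psma8 far below (0.279 FPKM).

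The tissue-specific alternates were near the limit of the depth. Psma8 was at 1.28, 1.56, 1.52 and 0.795 CPM in Control, 1.67, 2.26 and 1.27 CPM in Aged, and 1.78, 2.76 and 2.91 CPM in Aged+CF. Its 3 Aged+CF ovaries were above all Control ovaries. Psmb11 had 5, 3, 1 and 3 counts in Control ovaries, 2, 0 and 0 counts in Aged ovaries, and 0, 6 and 1 counts in Aged+CF ovaries, so that most ovaries were at or under 3 counts and no fold is given. The Psmb11 gene lies 3410 bases from Psmb5 on chromosome 14.

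The promoters of the subunit genes were read from RefSeq (GRCm38.p6), which gave 31 windows of 250 bases before and 50 bases after a start site for 29 of the 36 genes. Psma8, Psmb1, Psmb2, Psmb7, Psmc3, Psmd3 and Psmd7 had no window. The shown stretches are the 110 bases before the start, 5′ to 3′ on the strand of the gene, for both catalytic subunits that hold the core of an antioxidant response element, TGACNNNGC, and for a base ATPase and a pair of lid subunits that hold CGGAAG, the core bound by ETS-family factors. Capitals mark the match, which on the opposite strand reads CTTCCG for CGGAAG. The stretches lie at chr14:54617996-54618105 (Psmb5, minus strand), chr11:70525247-70525356 (Psmb6, plus strand), chr12:100110092-100110201 (Psmc1, plus strand), chr11:107479418-107479527 (Psmd12, plus strand) and chr14:14120946-14121055 (Psmd6, minus strand). The start meant is that of RefSeq. In GENCODE M21 the genes Psmb5, Psmc1, Psmd12 and Psmd6 begin within the stretch shown. The last match shown for Psmc1 and for Psmd12 lies after that start.
Psmb5: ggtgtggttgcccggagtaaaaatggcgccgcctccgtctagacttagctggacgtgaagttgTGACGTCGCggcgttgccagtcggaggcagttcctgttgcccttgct
Psmb6: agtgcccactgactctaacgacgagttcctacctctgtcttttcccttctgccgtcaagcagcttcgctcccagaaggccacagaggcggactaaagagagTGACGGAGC
Psmc1: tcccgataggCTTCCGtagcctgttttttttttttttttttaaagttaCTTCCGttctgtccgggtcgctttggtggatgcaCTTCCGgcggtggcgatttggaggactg
Psmd12: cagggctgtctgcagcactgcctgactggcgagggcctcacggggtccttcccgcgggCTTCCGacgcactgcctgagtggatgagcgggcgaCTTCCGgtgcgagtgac
Psmd6: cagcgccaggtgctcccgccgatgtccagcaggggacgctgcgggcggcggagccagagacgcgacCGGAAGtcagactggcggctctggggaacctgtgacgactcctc

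CGGAAG was the motif whose share among the subunit genes stood farthest from that of all promoters, in percentage points, of the 9 searched on both strands. It was in 19 of the 31 windows (61.3%) and in 16.9% of all 32851 windows, and 18 genes held it, among them Psma4, Psmb3, Psmb4, Psmc4, Psmd2, Psmd4 and Psmd13. GGAAGC, which overlaps it, was in 48.4% of the subunit windows against 26.8% of all. TGACNNNGC was in 16.1% against 12.4%, in Psmb5, Psmb6, Psmc6, Psmd12 and Psmd9. Its looser form TGANNNNGC, which contains it, was in 58.1% against 41.3%, the variant TGANTNNGC in 16.1% against 10.8%, and 1 extended form, with every base of the core set, in 0 of 31 windows and 0.167% of all. CCAAT was in 38.7% against 37.4%, the core GCCATNTT of YY1-type sites in 19.4% against 6.05%, and TATAAA in 9.68% against 13.6%. The subunit windows were richer in G and C (median 56.7% against 52.7%). These matches are letters in a window and not sites shown to be bound.

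One ovary stood apart from the other 9, and the medians of the subunits in the comparisons that use the Aged group depend on it. In Aged replicate 33 the 14 core genes had a median log2 ratio of 0.55 to the Control mean and the 20 regulatory genes one of 0.26. In the other 9 ovaries the core median lay between -0.12 and 0.14 and the regulatory median between -0.12 and 0.09. Aged 33 had the highest value of the 10 ovaries for 31 of the 34 genes, against 21.1% of all tested genes. The count was 19 of 34 with libraries scaled by total counts alone, where the core median in Aged 33 was 0.31 and the regulatory median 0.01. The β ring was farthest up (0.67), then the α ring (0.47), the base ATPases (0.42), the lid (0.22), the other base subunits (0.18) and the assembly chaperones (0.13). The summed core genes stood at 0.902 of the summed regulatory genes in CPM in this ovary and at 0.693 to 0.761 in the other 9. This ratio does not depend on the scaling of the library, but it is not free of transcript length. The same ovary had the highest summed luteal markers (32200 CPM), and its 10 most counted genes took 7.92% of the reads, against 4.02% to 5.94% elsewhere.

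**Figure D2:**
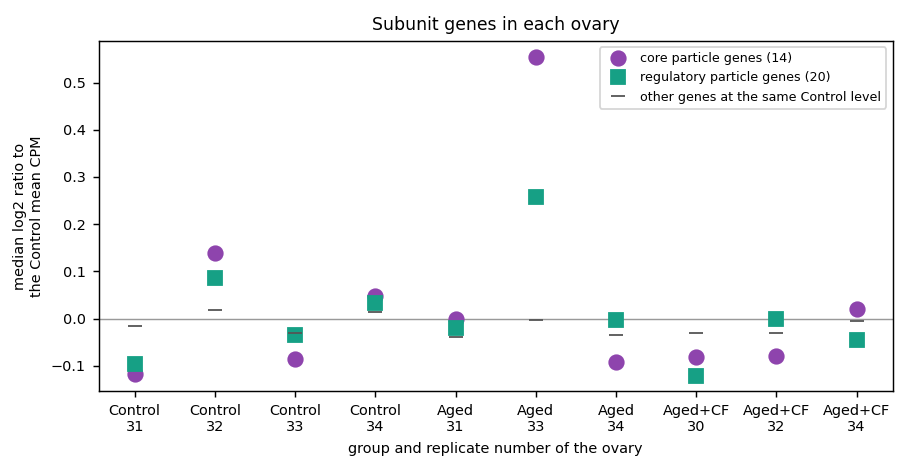
Median log2 ratio to the Control mean CPM in each ovary, for the 14 core and 20 regulatory genes and for other genes at the same Control level. Aged replicate 33 stands at 0.55 (core) and 0.26 (regulatory), while the other 9 ovaries lie between -0.12 and 0.14.

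Short transcripts in general were higher in Aged 33. Among other genes in the range of Control levels of the subunits, the median log2 ratio to Control in this ovary was 0.60 for genes with a principal transcript under 1000 bases, 0.22 for 1535 genes of 1000 to 2000 bases and -0.10 for 6363 longer genes. The medians of the subunit genes in the same ranges were 0.57 (5 genes), 0.42 (20 genes) and 0.18 (9 genes). In Aged 31 and Aged 34 the other genes stayed between -0.06 and 0.06 in all length ranges. A fit in which each library had an offset by transcript length, added after the data were seen, is therefore given beside each comparison.

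**Figure D3:**
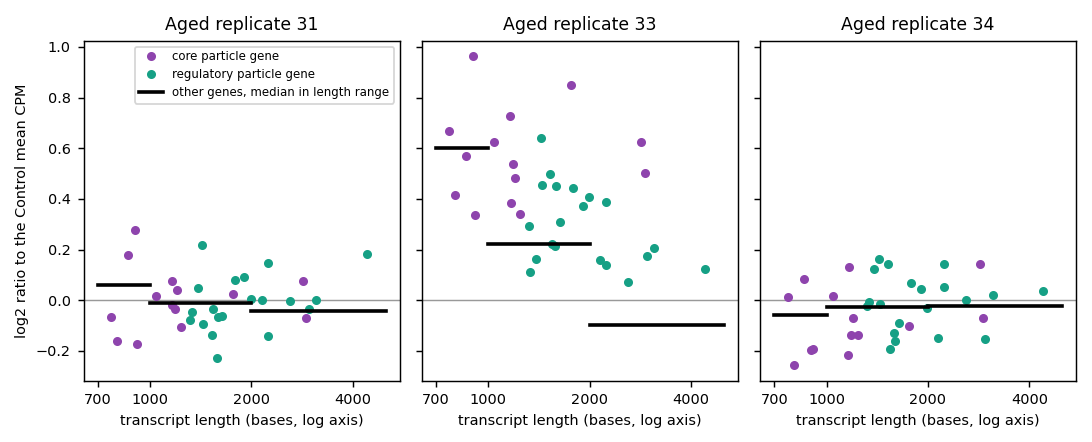
Log2 ratio to the Control mean CPM of each core and regulatory gene against the length of its principal transcript (log axis), in the 3 Aged ovaries, with the median of other genes in each length range as a black line. In Aged 33 the other genes step down from 0.60 to -0.10 with length. The medians of the subunit genes in the same ranges are 0.57, 0.42 and 0.18, and some genes lie below the lines, such as Psma7 and Psmb6 among the shortest.

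Aged was first compared with Control, to ask which genes differ with age. No subunit gene changed at adjusted p in edgeR's test, while 15.4% of all tested genes did, 7.14% higher and 8.3% lower (5.0% and 6.06% with a fold of at least 1.5). At an unadjusted p under 0.05, 2 were higher in Aged (Psmc6 and Psmd10), where 15.7% of all tested genes were higher, and 0 were lower, where 15.9% of all were. DESeq2's Wald test called 3 at unadjusted p and 1, Psmd10, at adjusted p (0.0454). In that test 9.74% of all genes were higher at unadjusted p and 11.3% passed the adjusted p. The shares beside DESeq2's test, here and below, are of 36618 genes without the low-count filter, against 18956 in edgeR's fit. The fold changes were small and mostly of 1 sign: 34 of 35 were above 0 (49.9% of all genes) and 1 below (50.1%), with a median log2 fold change of 0.14 against -0.0005 for all genes. With total counts alone 17 were above 0 and 18 below, around a median of -0.0003, in a fit where the median of all genes moved to -0.13. The 95% interval stayed between 0.667-fold and 1.5-fold for 27 of 35 genes (32.4% of all genes). These were 8 of 15 in the core and 19 of 20 in the regulatory particle. The share of all genes, here and in the other comparisons, covers every count level kept by the filter. It was not computed for genes at the levels of the subunits.

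By place in the complex, the β ring had a median log2 fold change of 0.25, the α ring 0.16, the base ATPases 0.12, the assembly chaperones 0.11, the lid 0.07 and the other base subunits 0.02. In the β ring the values were 0.43 for Psmb5, 0.32 for Psmb1, 0.29 for Psmb2, 0.25 for Psmb7, 0.24 for Psmb3, 0.15 for Psmb4 and 0.03 for Psmb6. In the α ring they ran from 0.01 (Psma7) and 0.05 (Psma5) through 0.14 (Psma2), 0.16 (Psma1), 0.18 (Psma4) and 0.25 (Psma6) to 0.30 (Psma3). Those of the lid ran from -0.04 for Psmd7, the one gene below 0, to 0.19 for Psmd8, with 0.01 for Psmd3, 0.01 for Psmd14 and 0.02 for Psmd11. In Aged 33 the median log2 ratio to Control was 0.67 (β ring), 0.47 (α ring) and 0.42 (base ATPases). In Aged 31 these medians were 0.02, -0.02 and -0.07, and in Aged 34 they were -0.14, -0.07 and -0.02. The assembly chaperones were at 0.18 in Aged 31, 0.13 in Aged 33 and 0.03 in Aged 34. The order of the classes without Aged 33 was not tested.

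The catalytic subunits show how far 1 ovary carries these values. Psmb5, which encodes the chymotrypsin-like site, was at 78.3, 93.5, 80.4 and 84.3 CPM in Control, 102, 164 and 73.4 CPM in Aged (replicates 31, 33 and 34), and 79.7, 89.3 and 86.9 CPM in Aged+CF. One Aged ovary was above all others and another below all others, and the 1.34-fold difference from Control (95% interval 0.961 to 1.88) did not pass edgeR's test (adjusted p = 0.211). Psmb7, of the trypsin-like site, was at 101, 122, 104 and 113 CPM in Control, 116, 182 and 94.8 CPM in Aged, and 102, 101 and 114 CPM in Aged+CF. Psmb6, of the caspase-like site, was at 110, 140, 115 and 127 CPM in Control, 110, 164 and 103 CPM in Aged, and 108, 104 and 115 CPM in Aged+CF. For both, Aged 33 was the highest ovary and Aged 34 the lowest.

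Psmd10 encodes gankyrin, a chaperone of the base. Its levels were 18.3, 19.0, 17.6 and 19.2 CPM in Control, 21.5, 28.8 and 20.7 CPM in Aged, and 20.9, 19.9 and 20.9 CPM in Aged+CF. All Aged ovaries were above all Control ovaries, by 1.28-fold on average (95% interval 1.05 to 1.56, edgeR unadjusted p = 0.0206, adjusted p = 0.0904). Psmc6, an ATPase, was at 84.0, 95.4, 82.8 and 95.8 CPM in Control, 99.0, 117 and 98.8 CPM in Aged, and 87.3, 90.1 and 88.6 CPM in Aged+CF. Its Aged ovaries were also above all Control ovaries (1.17-fold, 95% interval 1.02 to 1.36, edgeR unadjusted p = 0.0333, adjusted p = 0.122). These were the 2 of 35 genes with no overlap upward, which 11.8% of all genes showed, and 0 showed it downward (15.6% of all genes). Psma3, next by p, was at 37.9, 45.7, 35.9 and 35.8 CPM in Control, 40.9, 59.8 and 42.8 CPM in Aged, and 39.0, 41.0 and 39.9 CPM in Aged+CF, so that the groups overlapped (1.23-fold, edgeR unadjusted p = 0.0641). The gene 3110056K07Rik overlaps Psma3 on the other strand, and the strand setting of the counting is not given in the sources used here. Of the 36 genes, 13 overlap another gene on the other strand and 8 on the same strand.

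Without Aged 33 the median of the 35 genes in Aged vs Control was 0.004 and 19 were above 0. Psmb5 then differed by 0.09 on the log2 scale and Psmd10 by 0.22 (edgeR unadjusted p = 0.0469). With the offset by transcript length the median was 0.07 (0.03 for all genes), with 27 of 35 above 0, and Psmd10 (0.27) and Psmc6 (0.23) still had an unadjusted p under 0.05. The count at unadjusted p was 0 without Control 33, 1 without Control 31 or without Aged 33, 4 without Control 32, 9 without Aged 31 and 12 without Aged 34, all of them higher in Aged. Of all genes, 19.0% were higher at unadjusted p without Aged 34 and 13.2% to 15.7% in the others of these fits. Without Aged 34, Psmb5 (0.70, adjusted p = 0.0167) and Psmd10 (0.48, adjusted p = 0.0285) passed edgeR's adjusted p, as did 22.3% of all genes in that fit.

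**Figure D4:**
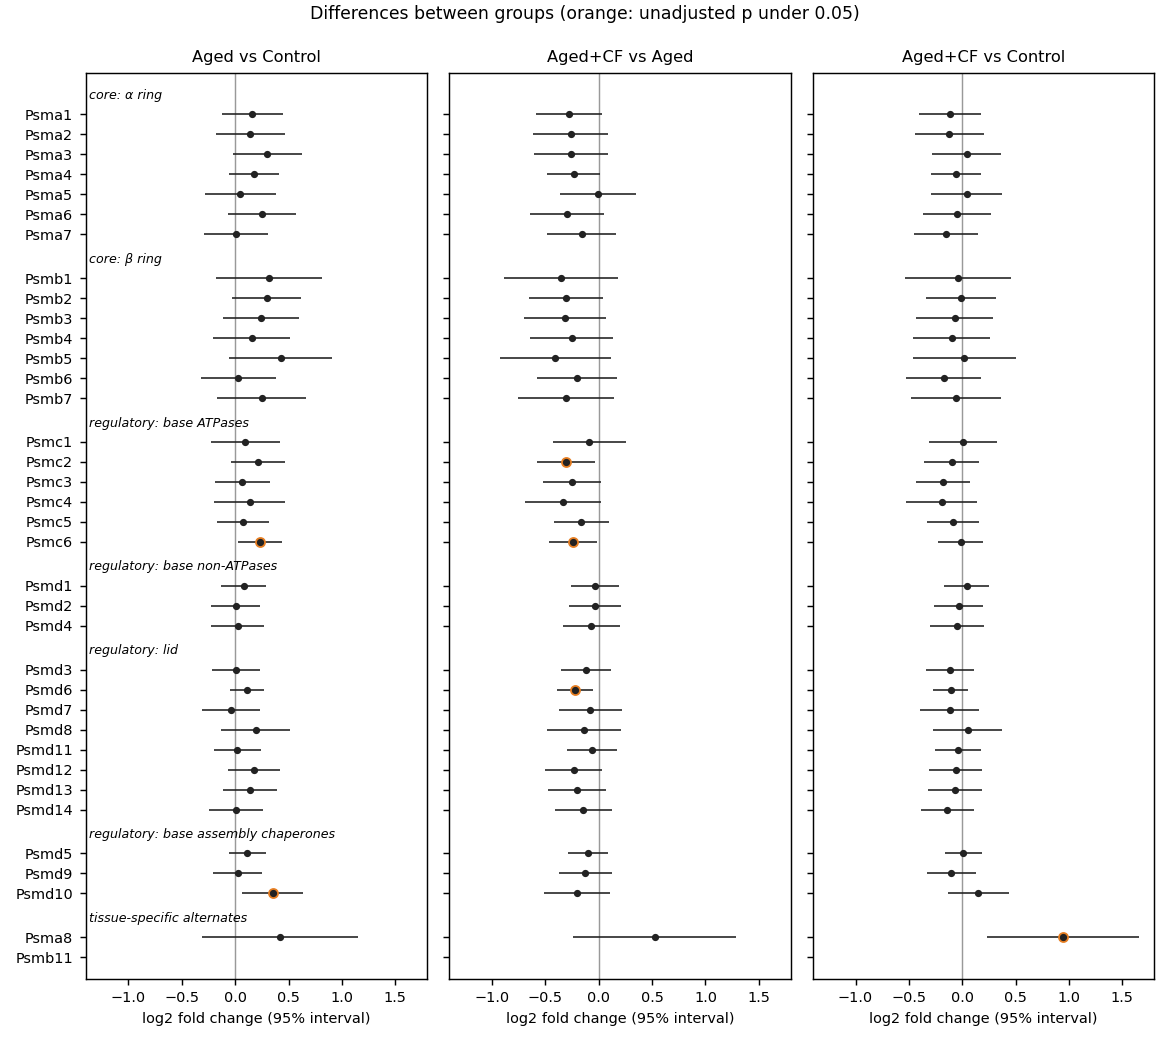
Log2 fold change with its 95% interval for each gene in the comparison of Aged with Control (left), of Aged+CF with Aged (middle) and of Aged+CF with Control (right), from edgeR's fit to all 10 ovaries, with unadjusted p under 0.05 in orange; Psmb11 was not tested. The points lie right of 0 for 34 of 35 genes in the left panel and left of 0 for 34 of 35 in the middle panel, with most intervals across 0; with total counts alone these were 17 and 27.

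Aged+CF was compared with Aged, to ask what differs after CEFFE. Again no subunit gene changed at adjusted p, and 0.00528% of all genes did. At an unadjusted p under 0.05 in edgeR's test, 3 were lower in Aged+CF (Psmc2, Psmc6 and Psmd6), where 8.27% of all genes were lower, and 0 were higher, where 8.06% of all were. DESeq2's Wald test gave 3 at unadjusted p and 0 at adjusted p, against 5.18% of all genes lower at unadjusted p and 1.87% at adjusted p. Of the 35 genes 34 were below 0 (52.6% of all genes) and 1, Psma8, above (47.4%), with a median log2 fold change of -0.21 against -0.02 for all genes. With total counts alone 27 were below 0 and the median was -0.10, where that of all genes was 0.07. The 95% interval stayed between 0.667-fold and 1.5-fold for 23 of 35 genes (34.5% of all genes). The Aged ovaries are the same in both comparisons, so a high Aged ovary raises the first and lowers the second.

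By class, the median log2 fold change in Aged+CF vs Aged was -0.31 in the β ring, -0.26 in the α ring, -0.25 in the base ATPases, -0.14 in the lid, -0.13 in the assembly chaperones and -0.04 in the other base subunits. Psmb5 (-0.41), Psmb1 (-0.35), Psmc4 (-0.33) and Psmb3 (-0.32) were lowest, and none of them passed even the unadjusted p. The β ring median log2 ratio to Control was 0.02 in Aged 31, 0.67 in Aged 33 and -0.14 in Aged 34. It was -0.10 in Aged+CF 30, -0.13 in Aged+CF 32 and 0.04 in Aged+CF 34. The order of the classes in Aged+CF vs Aged without Aged 33 was not tested. Psmd6, a lid subunit, was at 70.1, 74.8, 68.8 and 69.9 CPM in Control, 73.4, 79.4 and 77.3 CPM in Aged, and 63.9, 66.8 and 66.4 CPM in Aged+CF. Every Aged+CF ovary was below every Aged and every Control ovary. The difference from Aged was 0.856-fold (95% interval 0.761 to 0.964, edgeR unadjusted p = 0.0155, adjusted p = 0.219).

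The ATPase Psmc2 was at 94.3, 115, 95.9 and 106 CPM in Control, 109, 140 and 108 CPM in Aged, and 93.0, 95.1 and 99.9 CPM in Aged+CF. Its Aged+CF ovaries were below all Aged ovaries (0.806-fold, edgeR unadjusted p = 0.0293, adjusted p = 0.26). Psmc6 likewise did not overlap (0.844-fold, edgeR unadjusted p = 0.0352, adjusted p = 0.273). Psma6 and Psmd9 made up the 5 genes with no overlap downward, which 8.39% of all genes showed (0 genes upward, 10.2% of all genes), with unadjusted p of 0.0827 and 0.286 in edgeR's test.

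Without Aged 33 the median of the 35 genes in Aged+CF vs Aged was -0.04 and 24 were below 0. Psmd6 kept -0.20 (edgeR unadjusted p = 0.0243), and Psmb5 was at -0.04. With the offset by transcript length the median was -0.08 (-0.02 for all genes) and 28 of 35 were below 0. In that fit Psmc2 was the one gene at unadjusted p (-0.22, edgeR unadjusted p = 0.0445), while Psmd6 was at -0.10 (edgeR unadjusted p = 0.196). The count at unadjusted p was 1 without Aged 33, Aged+CF 30 or Aged+CF 32, 10 without Aged 31 and 16 without Aged 34, none of them at adjusted p and all of them lower in Aged+CF. Of all genes, 6.76%, 5.61%, 6.52%, 9.06% and 13.0% were lower at unadjusted p in these fits, in that order, and 3.36% passed the adjusted p without Aged 34.

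Aged+CF was last compared with Control, which involves no Aged ovary. At unadjusted p in edgeR's test 1 gene of 35 was higher in Aged+CF, Psma8, where 6.41% of all genes were higher, and 0 were lower, where 7.89% of all were. No gene of the 35 passed the adjusted p, which 0.179% of all genes did (0.137% higher, 0.0422% lower), and DESeq2's Wald test gave 1 at unadjusted p (4.25% of all genes higher) and 0 at adjusted p (1.84%). The median log2 fold change was -0.06 (-0.03 for all genes), with 26 below 0 (54.1% of all genes) and 9 above (45.9%). With the offset by transcript length the median was -0.01 (-0.01 for all genes), 21 were below 0, and Psma8 was the one gene at unadjusted p. The groups did not overlap for Psma8 and Psmd10 upward (9.69% of all genes) and for Psmd6 downward (12.2%). The 95% interval stayed between 0.667-fold and 1.5-fold for 34 of 35 genes (40.5% of all genes). Psma8, the exception, was 1.92-fold higher in Aged+CF (95% interval 1.18 to 3.15, edgeR unadjusted p = 0.0144, adjusted p = 0.238), on 31 to 62 counts per ovary against 15 to 30. Without Aged+CF 34 its log2 difference was 0.84 and its edgeR unadjusted p 0.055. The next by p were the ATPase Psmc3 (106, 125, 117 and 120 CPM in Control, 112, 145 and 110 CPM in Aged, 97.9, 101 and 111 CPM in Aged+CF, with overlap) and Psmd6, with unadjusted p of 0.151 and 0.158 in edgeR's test. Psmd10 was above all Control ovaries here too, at a log2 difference of 0.15 (edgeR unadjusted p = 0.271).

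The spread between ovaries of 1 group was itself uneven. The median within-group SD of log2 CPM was 0.155 over the 34 genes and 0.177 over 8665 other genes at the same Control levels. For the subunits it was 0.113 among Control ovaries, 0.25 among Aged and 0.0952 among Aged+CF, and 0.126, 0.222 and 0.121 for the other genes. Core genes spread more in Aged (0.341) than regulatory genes (0.189), while in Control both were near 0.11 (0.116 and 0.108). The Aged values include Aged 33, with a core median log2 ratio to Control of 0.55 and a regulatory median of 0.26. In Aged 31 these were -0.0018 and -0.0197, and in Aged 34 -0.0929 and -0.0028. The spread without Aged 33 was not tested.

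The inducible subunits are the counterparts of the catalytic ones. Psmb10 and Psmb9 were highest in Aged 33, as most constitutive genes were, and Psmb8 in Aged 34. Psmb10 was at 28.5, 30.2, 29.3 and 31.1 CPM in Control, 35.3, 50.9 and 44.9 CPM in Aged, and 25.1, 25.2 and 33.3 CPM in Aged+CF. It rose in Aged by 0.55 on the log2 scale (SE 0.14, adjusted p = 0.0305 in edgeR's test). The call was lost, at adjusted p of 0.0551 to 0.0715 in edgeR's test, with no filter, with total counts alone, without any 1 of the 4 Control ovaries and without Aged 33. It was 0.46 (adjusted p = 0.0271) with the offset by length. Psmb8 (0.60, edgeR adjusted p = 0.136) and Psmb9 (0.57, adjusted p = 0.118) did not pass it, though without Aged 31 Psmb9 did (edgeR adjusted p = 0.0489). Between Aged+CF and Aged the log2 differences were -0.65 for Psmb10, -0.79 for Psmb9 and -0.35 for Psmb8, at adjusted p of 0.161, 0.199 and 0.538 in the same test. DESeq2's Wald test called Psmb10 there (adjusted p = 0.0135). On the other strand Psmb9 overlaps Tap1, Psmb10 overlaps Gm16156 and Psmb8 overlaps Gm20496. Psmb7, the counterpart of Psmb10, overlaps Nek6 and Gm13586 on the other strand and Gm27634 on its own.

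Within each ovary, the counts of an inducible gene were set against those of its constitutive counterpart, a ratio free of library scaling though not of gene length. The counts of Psmb9 were 9.26%, 9.19%, 8.84% and 11.3% of those of Psmb6 in the Control ovaries, 11.5%, 13.0% and 18.4% in the Aged ovaries, and 7.46%, 9.13% and 11.3% in the Aged+CF ovaries. All Aged ovaries were above all others, 1.46-fold above Control on average. The exact two-sided permutation test gave the lowest p possible with 4 against 3 ovaries, and adjusted over the 9 ratio tests the exact permutation p was 0.257. Psmb10 stood at 24.8% to 28.1% of Psmb7 in the Control ovaries, 30.4%, 28.1% and 47.4% in the Aged ovaries, and 24.5% to 29.3% in the Aged+CF ovaries (exact permutation p = 0.0857 for Aged vs Control, adjusted 0.3). Psmb8 stood at 15.1% to 27.2% of Psmb5 in the Control ovaries, 20.5%, 16.1% and 51.3% in the Aged ovaries, and 22.1% to 31.5% in the Aged+CF ovaries (exact permutation p = 0.743, adjusted 0.955). With 3 against 3 ovaries, Aged+CF vs Aged cannot go below 0.1, and none of the 9 ratios passed after adjustment.

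In all 3 ratios the highest ovary was Aged 34, not Aged 33. Aged 34 also had the highest summed leukocyte markers (1450 CPM, against 359 to 676 CPM in the other 9 ovaries), and the part of leukocytes in the ratios was not tested. Without Aged 34 the log2 difference for Psmb8 to Psmb5 in Aged vs Control turned from 0.24 to -0.26.

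**Figure D5:**
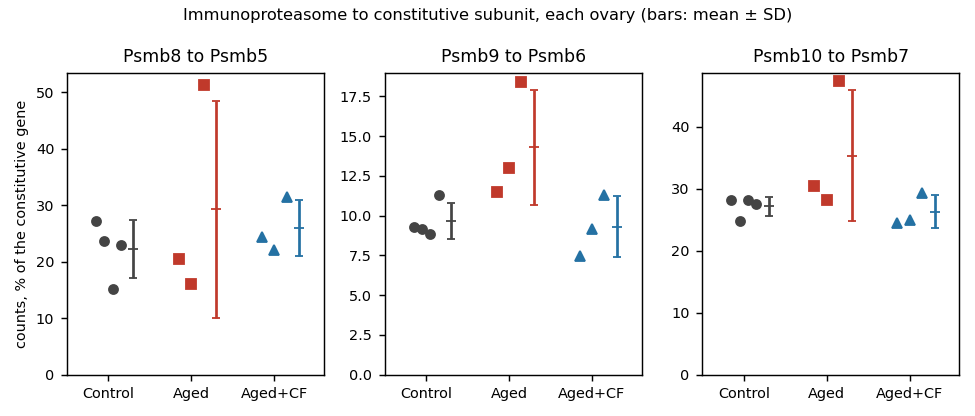
Counts of each inducible subunit as a percentage of those of its constitutive counterpart, for each ovary, with the mean and SD of the group beside the points. Aged replicate 34 is the highest ovary in all 3 panels (51.3%, 18.4% and 47.4%).

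Of the genes around the proteasome, a few passed a test. Among the activators and the inhibitor (5 genes), Psme1, a subunit of the PA28 cap, had 0.51 in Aged vs Control (edgeR unadjusted p = 0.00783, adjusted p = 0.0504) and, between Aged+CF and Aged, -0.48 (unadjusted p = 0.0156), and Psme2, its partner, 0.44 in Aged vs Control (unadjusted p = 0.0212). Psmf1, an inhibitor, had -0.25 in Aged+CF vs Control (unadjusted p = 0.0216 in the same test). None of these 5 genes passed edgeR's adjusted p in the fit to all 10 ovaries. Psme1 lay near the threshold in Aged vs Control: it passed with DESeq2's Wald test (adjusted p = 0.0165), with DESeq2's size factors (0.0433), with upper quartile scaling (0.0476) and among protein-coding genes with a length (0.0454). Without Aged 34 it passed edgeR's adjusted p against Control (0.00335) and between Aged+CF and Aged (0.0251), and without any 1 other ovary of the compared groups it passed in neither. Of 5 core assembly chaperones, Pomp had 0.55 in Aged vs Control (edgeR unadjusted p = 0.0457), and none passed edgeR's adjusted p. Of 11 associated proteins, Ubqln4 (-0.22) in Aged vs Control and Ecpas (0.19) in Aged+CF vs Aged were at unadjusted p, and of 6 ubiquitin and E1 genes 0 were, in either direction.

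The 4 genes of the NRF1 axis, the transcription factor Nfe2l1 that drives subunit genes when proteasome activity is short and the enzymes that process it, split. Ddi2, the protease that cuts NRF1, fell in Aged, with means of 129 CPM in Control and 101 CPM in Aged (log2 difference -0.35, edgeR adjusted p = 0.0241). Ngly1, the glycanase that edits it, rose, with means of 39.0 CPM in Control and 50.6 CPM in Aged (log2 difference 0.38, edgeR adjusted p = 0.032). Nfe2l1 itself, named after its values were seen, was at 136 CPM in Control and 153 CPM in Aged (edgeR adjusted p = 0.531). With the offset by transcript length Ddi2 was at -0.16 (edgeR adjusted p = 0.261) and Ngly1 at 0.39 (adjusted p = 0.0296). The call on Ddi2 was also lost, at edgeR adjusted p of 0.0535 to 0.0766, with no filter, with the 2 groups alone and without Control 31, 32 or 34 or Aged 31 or 33. That on Ngly1 was lost, at edgeR adjusted p of 0.0559 to 0.121, with no filter, with total counts alone and without Aged 31, Aged 33 or any 1 Control ovary.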

How the data were processed

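Each of the 10 ovaries had a library, and groups were taken from the titles. The table the authors deposited holds unnormalized read counts and FPKM for each gene. The submitters' processing notes name TopHat, Cufflinks 2.1.1 and GRCm38.p4, and the counting tool, annotation and strand setting are not given in the sources used here. In 100% of 276532 values checked, the deposited FPKM equals the count divided by 1 gene length and the column total, within 1%. Gene positions, overlaps and transcript lengths are from GENCODE M21 on GRCm38, and promoters from RefSeq.

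Counts were fitted with edgeR 4.0 in R 4.3: the filter on low counts left 18956 genes, libraries were scaled by TMM, and a quasi-likelihood model with 1 mean for each group was fitted to all 10 ovaries. P values are two-sided and adjusted by Benjamini-Hochberg over all genes tested, at a threshold of 0.05. The 95% intervals come from the fitted standard errors. Subunit ratios were compared with exact permutation tests. The fit was tested on simulated counts.

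The members and lists were chosen with earlier results of these data known. Ovary values are given for the catalytic subunits, Psma8, Psmb11 and the 3 genes with the smallest p of each comparison. No library was found to be a duplicate of another of its group. Nothing but the sample numbers says how the ovaries of a group relate, so p values measure the spread between these samples. Alternatives were no filter, DESeq2 1.42 (size factors, and the Wald test), total counts alone, upper quartile scaling, the 2 compared groups alone, the replicate number as a block, and leaving out each ovary. For the ratios it was a prior count of 2. The offset by transcript length (lowess per library, 15209 genes), the same genes without it, and the principal transcript length for levels were added after the data were seen.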

Additional observations from a re-analysis of the deposited data

How the results depend on the processing

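In edgeR's fit the genes at unadjusted p under 0.05 numbered 2 for Aged against Control, 3 for Aged+CF against Aged and 1 for Aged+CF against Control, and 0 at adjusted p. With total counts alone these were 0, 0 and 2 at unadjusted p, with the compared groups alone 1 in Aged vs Control, with the offset by transcript length 1 in Aged+CF vs Aged, and DESeq2's Wald test called 1 gene at adjusted p in Aged vs Control. Leaving out each ovary in turn gave 0 to 12, 1 to 16 and 0 to 1 genes at unadjusted p. At adjusted p it gave 0 to 2 in Aged vs Control, 0 to 1 of them past 1.5-fold, and 0 in both other comparisons. The median log2 fold change ran from 0.0036 to 0.25, from -0.30 to -0.042 and from -0.093 to -0.017. The log2 difference of a ratio changed sign in 3 of the 9 on leaving out an ovary: Psmb8 to Psmb5 from -0.26 to 0.58 for Aged against Control and from -0.33 to 0.50 for Aged+CF against Aged, and Psmb9 to Psmb6 from -0.22 to 0.084 in Aged+CF vs Control. The cause of these shifts was not tested. With the replicate number as a block, 0 genes were at unadjusted p for Aged against Control, and 0 for Aged+CF against Aged, and the calls on Psmb10, Ddi2 and Ngly1 in Aged against Control were lost (edgeR adjusted p = 0.109, 0.0973 and 0.136). Deviations from group means of same-numbered ovaries correlated at 0.138, -0.185 and 0.0696 between Control and Aged, and not every ovary correlated best with its own number, so the numbers were not taken to pair the samples. Depth limited Psma8 and Psmb11, at 62 counts or fewer per ovary.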
